A study of Mus musculus with 12 samples.

Results

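The Hox genes of the mouse were read in whole spinal cord as a description of how the cords compare along the head-to-tail axis. They were taken as every row of the deposited gene tables whose name is Hox, a cluster letter from a to d and a number, which gave 38 genes of 38924. The paralog number counts position within a cluster, from 1 at the end expressed nearest the head to 13 at the end expressed nearest the tail. By cluster, 11 members lie in Hoxa, 10 in Hoxb, 9 in Hoxc and 8 in Hoxd. By position, 8 members are paralogs 1 to 3, 6 are paralogs 4 and 5, 12 are paralogs 6 to 9 and 12 are paralogs 10 to 13.

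The study sequenced polyA RNA from the spinal cords of 12 mice aged 8 weeks on a mixed B6J;FVB background. The ETAQ/+ group held 6 mice heterozygous for delETAQ, a deletion in Gars, the gene of glycyl-tRNA synthetase, and the WT group held 6 mice without it. By the mouse numbers in the titles, ETAQ/+ were mice 1, 5, 6, 8, 9 and 11, and WT were mice 2, 3, 4, 7, 10 and 12. Mice 1 to 6 and mice 7 to 12 each held 3 mice of each genotype, and these are called the sets here because their libraries stood apart. Among mice 1 to 6 all but mouse 1 were male, and among mice 7 to 12 all but mouse 11 were female, so in WT mice set and sex cannot be told apart.

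Hox genes encode homeodomain transcription factors that are switched on in the embryo in the order of their place on the chromosome. Neurons and glia keep much of that pattern in the adult, so the set of Hox transcripts in a piece of cord depends on its level. In the cord, paralogs 4 and 5 are read from the neck downward, paralogs 6 to 9 mark forelimb and thoracic levels, paralogs 10 and 11 mark lumbar levels, and paralogs 12 and 13 the sacral and tail end.

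The stretches before the start of 5 members with a RefSeq promoter are printed as examples. Hoxc6 and Hoxc8, which also differed between the sets, had no such promoter. Hoxb4 was higher in mice 1 to 6, Hoxa10, Hoxd10 and Hoxd11 were lower there, and Hoxb8 had the highest level of all. Each is 250 bases from RefSeq (GRCm38.p6), 5′ to 3′ on the gene's strand, ending at the base before an annotated start. Capitals mark TTTATG or its reverse complement CATAAA, a core bound by CDX proteins, the caudal-type factors that drive Hox genes in the embryo.
Hoxb4 (chr11:96318017-96318266, plus strand): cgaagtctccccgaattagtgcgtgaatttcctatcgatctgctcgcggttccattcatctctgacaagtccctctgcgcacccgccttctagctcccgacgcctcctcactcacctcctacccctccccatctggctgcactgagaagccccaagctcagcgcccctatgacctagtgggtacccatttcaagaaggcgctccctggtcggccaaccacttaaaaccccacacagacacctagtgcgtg
Hoxb8 (chr11:96281655-96281904, plus strand): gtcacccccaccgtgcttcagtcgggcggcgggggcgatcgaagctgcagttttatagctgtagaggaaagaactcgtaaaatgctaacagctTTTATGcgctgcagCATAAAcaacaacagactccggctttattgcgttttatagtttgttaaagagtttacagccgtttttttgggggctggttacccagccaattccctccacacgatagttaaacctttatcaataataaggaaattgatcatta
Hoxa10 (chr6:52234940-52235189, minus strand): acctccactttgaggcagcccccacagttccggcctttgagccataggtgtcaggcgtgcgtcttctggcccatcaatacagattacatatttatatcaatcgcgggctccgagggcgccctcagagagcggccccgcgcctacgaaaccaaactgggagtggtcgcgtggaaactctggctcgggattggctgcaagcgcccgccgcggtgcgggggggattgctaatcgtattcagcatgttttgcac
Hoxd10 (chr2:74691641-74691890, plus strand): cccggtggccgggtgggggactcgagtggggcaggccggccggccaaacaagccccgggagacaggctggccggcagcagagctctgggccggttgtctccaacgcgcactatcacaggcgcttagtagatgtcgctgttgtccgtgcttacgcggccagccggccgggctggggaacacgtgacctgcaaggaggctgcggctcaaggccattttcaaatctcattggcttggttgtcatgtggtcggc
Hoxd11 (chr2:74679308-74679557, plus strand): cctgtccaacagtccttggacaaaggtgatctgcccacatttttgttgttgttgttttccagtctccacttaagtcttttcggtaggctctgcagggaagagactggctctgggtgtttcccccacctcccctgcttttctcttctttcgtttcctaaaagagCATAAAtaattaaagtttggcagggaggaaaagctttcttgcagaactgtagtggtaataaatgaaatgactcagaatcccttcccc

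The table of RefSeq promoters matched 23 starts of 21 Hox members. The letters TTTATG, on either strand, occurred in 4 of those 23 windows, against 3536 of all 32851 windows of the same length (10.76%). Among the windows of paralogs 10 to 13 it was 1 of 9, the Hoxd11 stretch above, and the Hoxb8 stretch held the letters 2 times. Hoxd11 and Hoxa10 each had a further start whose window is not printed (chr2:74682073-74682322 and chr6:52240855-52241104). Neither of those windows held the letters. The Hox windows had a median GC content of 59.2% and a median of 13 CpG pairs, against 52.4% and 6 over all windows. A match here is a description of letters and not a shown binding site.

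The libraries held 23595944 to 41452700 expected counts, of which Hox members took 0.0723% to 0.0856%. Gars was higher in ETAQ/+ cords, at 0.19 ± 0.03 on the log2 scale (SE), and edgeR's quasi-likelihood test gave an adjusted p of 0.00408. Genes of cord neurons summed to 284 to 334 TPM (a transcript level scaled by gene length and library total) in mice 1 to 6 and 327 to 351 TPM in mice 7 to 12. Of 12 markers of brain regions, 3 were at 0 in every library, Otx2 among them, and 4 could be tested. Summed markers of red cells, bone marrow, skeletal muscle, Schwann cells, meninges and bone separated the sets without overlap, and those of sensory ganglia overlapped, at 48.4 to 65.0 TPM in mice 1 to 6 and 53.7 to 63.2 TPM in mice 7 to 12. Red cell markers summed to 7062 to 13163 TPM in mice 1 to 6, against 558 to 1128 TPM in mice 7 to 12. Bone marrow markers summed to 438 to 870 TPM in mice 1 to 6, against 2.46 to 19.9 TPM in mice 7 to 12. Skeletal muscle markers summed to 51.3 to 723 TPM in mice 1 to 6, against 1.86 to 4.90 TPM in mice 7 to 12.

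Levels of the members were compared in TPM. Hoxb8, which shapes the dorsal horn, had the highest mean level of all members, 131 ± 20.9 TPM (SD, n = 12). Hoxa7 followed at 57.6 ± 3.37 TPM, then Hoxb9 at 50.3 ± 5.89 TPM and Hoxa9 at 47.9 ± 6.82 TPM, and the last 2 of these lay within each other's spread. The 12 paralogs 6 to 9 together took 65.9% to 71.5% of the summed Hox TPM in a cord, and the 12 paralogs 10 to 13 took 8.04% to 15.6%. Hoxc10, which specifies lumbar motor neurons, led the caudal members at 38.3 ± 5.09 TPM, and its paralog Hoxa10 had 24.98 ± 4.50 TPM. Among paralogs 4 and 5 the highest were Hoxb5 at 23.2 ± 1.93 TPM and Hoxa5, needed for phrenic motor neurons in the neck, at 21.3 ± 1.78 TPM.

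The head-most members were also present. Among paralogs 1 to 3, Hoxd3 had 35.2 ± 3.39 TPM and Hoxb3 14.2 ± 2.33 TPM (SD, n = 12). The Hoxd3 row holds transcripts that the GENCODE M21 annotation assigns to Hoxd3, Hoxd4 and Gm28230, so its level is not that of Hoxd3 alone. In the same way the Hoxa3 row also holds transcripts of Gm28308, and the Hoxd11 row those of Gm28309. Annotated antisense exons cover 52.9% of Hoxb3 exon bases, 34.98% of Hoxa11, 27.3% of Hoxb2, 24.4% of Hoxa3 and 20.4% of Hoxa7. The strand setting of the counting is not given in the sources used here, so reads of those genes and of their antisense partners cannot be told apart. Of the 75-base sequences of Hoxa2, 11.5% also occur in another gene's transcripts, and of Hoxc10 5.12%, which makes the division of their reads uncertain. Hoxb1, which acts in the hindbrain, was near 0, at 0.0683 ± 0.0664 TPM, and the lowest of all members was Hoxd12 at 0.0158 ± 0.0211 TPM.

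Set apart by mouse number, the cords differed most at the caudal end of the Hox clusters. In mice 1 to 6 several caudal members were lower and a few members of paralogs 4 to 8 were higher than in mice 7 to 12. Fitted with sex and genotype as covariates, 12 of 34 tested members were called at an adjusted p under 0.05, against 7.89% of all 17189 tested genes. Of these, 5 were higher in mice 1 to 6 (4.93% of all tested genes were) and 7 were lower (2.96% of all tested genes were). Hoxc12, Hoxb13 and Hoxc13 passed the filter on low counts only through mice 7 to 12, where they were high, so their calls are no evidence of a difference. Without these members, 10 of 31 were called, 5 higher and 5 lower, with a median log2 fold change of -0.04, against 0.0045 over all tested genes. The mitochondrial share of counts also moved with the set, at 8.50% to 11.1% in mice 1 to 6 and 7.88% to 8.85% in mice 7 to 12, and its part in the Hox differences was not tested. In bulk cord, fewer cells of a type and less RNA per cell cannot be told apart.

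**Figure D1:**
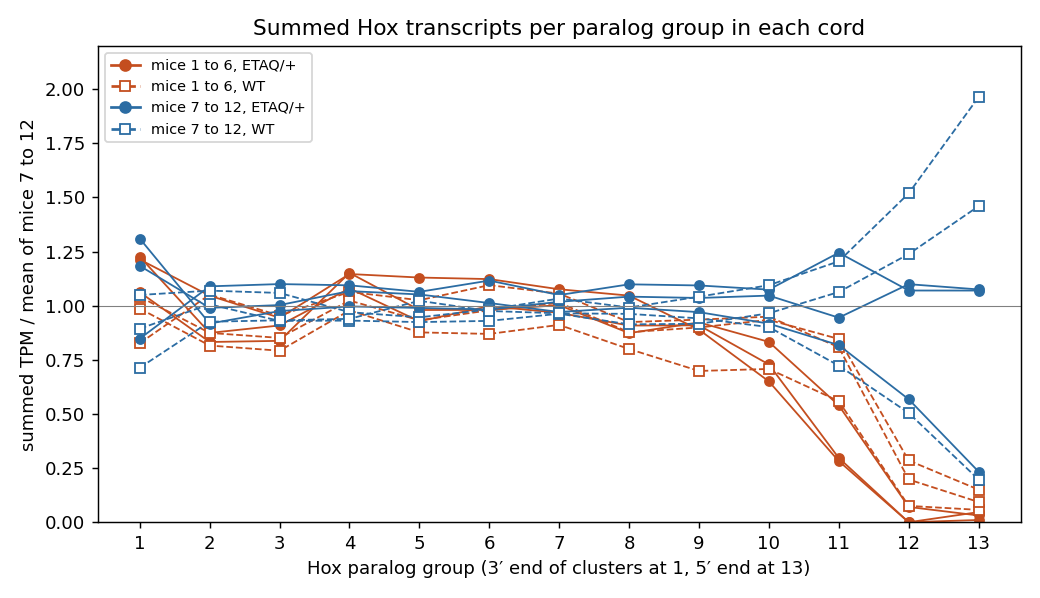
Summed TPM of each paralog group in each cord, divided by the mean of mice 7 to 12, against paralog number. Mice 1 to 6 are orange and mice 7 to 12 blue, with filled circles for ETAQ/+ and open squares for WT. The lines spread widest at paralogs 11 to 13, and the orange lines drop below the blue ones without overlap at 12 and 13. Those 12 and 13 sums are mostly Hoxc12, Hoxc13 and Hoxb13, whose separation is no evidence.

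As a description of group sums, the drop grew with paralog number from 10 to 13. Summed over the members of a paralog group, the log2 ratio of mean TPM in mice 1 to 6 over mice 7 to 12 was -0.32 for paralogs 10, -0.85 for paralogs 11, -3.25 for paralogs 12 and -3.94 for paralogs 13. For paralogs 12 the summed levels were 0 to 1.17 TPM in mice 1 to 6 and 2.07 to 6.23 TPM in mice 7 to 12. For paralogs 13 they were 0.0200 to 0.290 TPM in mice 1 to 6 and 0.380 to 3.78 TPM in mice 7 to 12, so neither group overlapped. In mice 7 to 12 Hoxc12 made a mean of 4.08 of the 4.10 TPM of paralogs 12. Hoxc13 and Hoxb13 made 1.065 and 0.442 of the 1.925 TPM of paralogs 13 there. These members passed the filter on low counts only through mice 7 to 12, so both ratios are no evidence of a steeper fall. The sums of paralogs 10 and 11 overlapped between the sets, as did those of paralogs 1 to 9, whose log2 ratios lay between -0.19 and 0.10.

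Hoxc12, one of the most tail-ward genes of its cluster, separated the sets completely. It had 0, 0.159, 0.380, 0.560, 0.129 and 0 CPM (counts scaled by library total and TMM factor) in mice 1 to 6, against 2.90, 1.05, 1.97, 2.36, 2.05 and 0.950 CPM in mice 7 to 12. Every cord of mice 1 to 6 was below every cord of mice 7 to 12, and mice 1 and 6 had no count at all. The fitted log2 fold change was -4.01 ± 0.73 (SE), given as a description, and it lay between -8.30 and -3.57 when a mouse was left out (-8.30 without mouse 11). A count of 0 allows up to 3 counts, which is 0.0888 CPM in mouse 1 and 0.0982 CPM in mouse 6.

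Hoxc13, at the tail end of the same cluster and known for its role in hair and nails, had 0, 0, 0.114, 0.219, 0 and 0 CPM in mice 1 to 6, against 2.36, 0.471, 1.55, 1.93, 1.60 and 0.339 CPM in mice 7 to 12. The sets did not overlap, and in mice 7 to 12 the low cords were mice 8 and 12. The fitted difference was -5.15 ± 1.02 on the log2 scale (SE), again a description, and -7.81 without mouse 11. Hoxb13, whose loss lengthens the tail end of the cord, had a fitted log2 fold change of -5.62 ± 1.65, the lowest of the tested members. It was at 0 in 4 of 6 mice 1 to 6 and in mice 8 and 12.

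These members are so rare that the read numbers are worth giving. Over mice 1 to 6 there were 41 reads of Hoxc12, 12 of Hoxc13, 3 of Hoxb13, 1 of Hoxa13, 18 of Hoxd13 and 2 of Hoxd12, against 335, 246, 91, 46, 39 and 6 over mice 7 to 12. Scaled by summed library totals, the ratio was 0.115 for Hoxc12 (exact 95% interval 0.0813 to 0.160) and 0.0460 for Hoxc13 (0.0234 to 0.0818). For Hoxa13 it was 0.0205 (0.000508 to 0.120), for Hoxb13 0.0311 (0.00629 to 0.0938) for Hoxd13 0.435 (0.234 to 0.779) and for Hoxd12 0.314 (0.0310 to 1.76), whose interval includes no difference. These intervals cover counting error only and compare the pooled reads of 6 libraries with those of 6 others. Hoxa13, Hoxd13, Hoxd12 and Hoxb1 did not pass the filter on low counts.

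Among paralogs 10 and 11, which specify lumbar identity, the fall was smaller and the sets overlapped. Hoxa10 had 15.8, 21.8 and 23.9 CPM (lowest, median, highest) in mice 1 to 6, against 23.0, 26.9 and 29.5 CPM in mice 7 to 12. Mouse 1 was the lowest cord, and mice 3 and 5 stood just above mouse 12. Its log2 fold change was -0.56 ± 0.10 (SE), with an adjusted p of 0.00341 by edgeR.

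Hoxd11 had 2.88, 4.78 and 8.02 CPM in mice 1 to 6, against 5.94, 9.48 and 10.6 CPM in mice 7 to 12, with mice 1 and 6 lowest. Its log2 fold change was -1.12 ± 0.29 (SE) and its adjusted p 0.0498 by edgeR. Hoxc11 fell by 1.34 ± 0.33 on the log2 scale with an adjusted p of 0.0298, and Hoxd10 by 0.69 ± 0.17 with an adjusted p of 0.0316. Hoxa11 and Hoxc10 were not called. Their log2 fold changes were -0.74 ± 0.28 with an adjusted p of 0.128 and -0.27 ± 0.10 with an adjusted p of 0.133. Of the 6 tested members of paralogs 10 and 11, none of which owed its place to the filter in the way of Hoxc12, 4 were called lower and the median log2 fold change was -0.71.

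**Figure D2:**
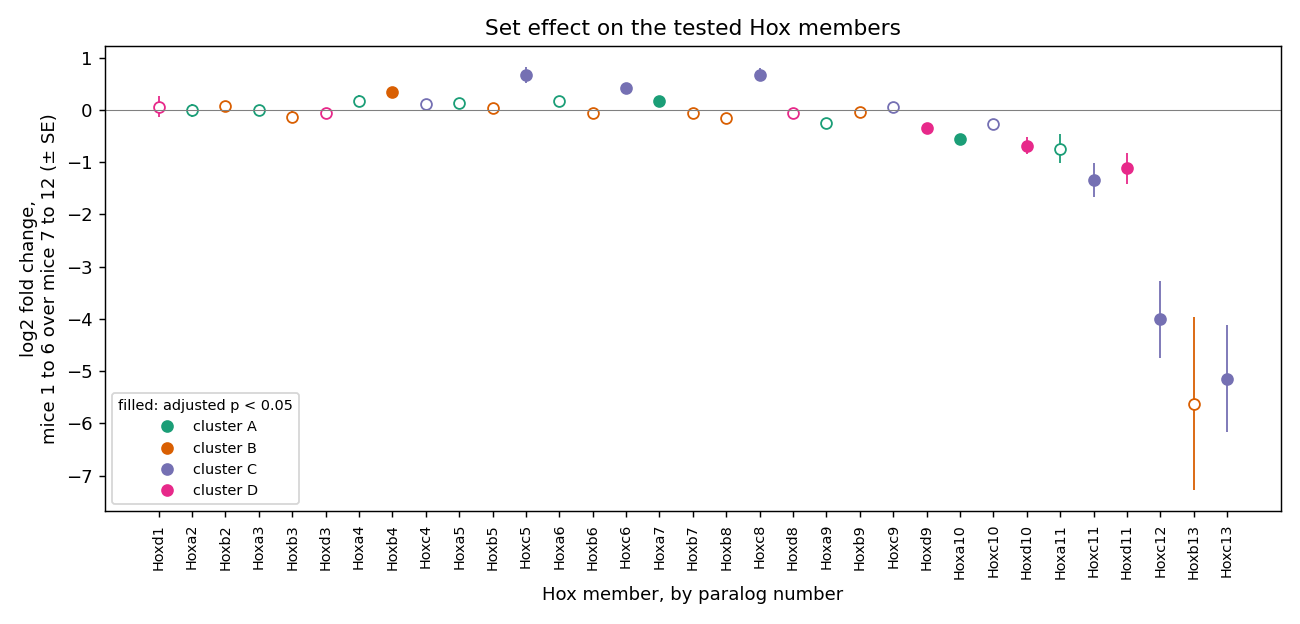
Log2 fold change of mice 1 to 6 over mice 7 to 12 with its SE for the tested Hox members but 1, ordered by paralog number and coloured by cluster, with sex and genotype as covariates. Filled points have an adjusted p under 0.05, which is no evidence for Hoxc12 and Hoxc13. Points sit near 0 up to paralog 9, with Hoxc5, Hoxc6 and Hoxc8 above it, and descend from paralog 10 to the lowest value, -5.62 for Hoxb13.

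The members that were higher in mice 1 to 6 came from paralogs 4 to 8. Hoxc6, a marker of forelimb-level motor neurons, had 19.6, 20.2 and 22.3 CPM (lowest, median, highest) in mice 1 to 6, against 15.6, 16.5 and 16.9 CPM in mice 7 to 12. The sets did not overlap. The log2 fold change was 0.41 ± 0.05 (SE), with an adjusted p of 0.000141 by edgeR, the smallest p of the Hox members.

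Hoxc8, which sets motor pools of the lower forelimb levels, had 46.7, 56.1 and 70.8 CPM in mice 1 to 6, against 33.8, 39.4 and 45.8 CPM in mice 7 to 12. Mouse 1 was the highest cord and the sets did not overlap, by a narrow gap between mouse 3 and mouse 12. Its log2 fold change was 0.67 ± 0.12 (SE), the highest of the tested members, with an adjusted p of 0.00830 by edgeR. Hoxb4, read from the hindbrain border downward, had 12.97, 14.2 and 14.9 CPM in mice 1 to 6, against 10.5, 11.8 and 12.7 CPM in mice 7 to 12, again without overlap. The fit gave 0.34 ± 0.07 on the log2 scale (SE), with an adjusted p of 0.0110 by edgeR. Without mouse 11 it was 0.20 with an adjusted p of 0.496, and without mouse 1 it was 0.48 with an adjusted p of 0.0524.

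Hoxc5, which acts with Hoxa5 in phrenic motor neurons, had 3.70, 4.604 and 5.64 CPM in mice 1 to 6, against 2.61, 3.46 and 4.44 CPM in mice 7 to 12, and the sets overlapped. Fitted on the log2 scale, the difference was 0.67 ± 0.15 (SE), with an adjusted p of 0.0142 by edgeR. Hoxa7, a gene of thoracic levels, differed least of the called members, with 56.3, 59.8 and 62.3 CPM in mice 1 to 6 and 52.1, 54.1 and 55.3 CPM in mice 7 to 12. The fitted log2 fold change was 0.17 ± 0.04 (SE), with an adjusted p of 0.0196 by edgeR, and the sets did not overlap. Without mouse 1 the Hoxa7 value was 0.11 with an adjusted p of 0.453, and without mouse 11 it was 0.23 with an adjusted p of 0.0876. All 6 members of paralogs 4 and 5 had a positive fitted log2 fold change, with a median of 0.15, and 2 of them were called. For Hoxb5 the sign came from the fit, since its mean was 35.2 CPM in mice 1 to 6 and 36.1 CPM in mice 7 to 12. The others had a higher mean CPM in mice 1 to 6.

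Not every member between paralogs 6 and 9 was higher in mice 1 to 6. Hoxd9 had 13.3, 15.7 and 17.9 CPM (lowest, median, highest) in mice 1 to 6, against 17.2, 17.9 and 22.1 CPM in mice 7 to 12, and only mouse 3 reached into the other set. It was lower at -0.35 ± 0.09 on the log2 scale (SE), with an adjusted p of 0.0224 by edgeR. Hoxb8 had 118, 121 and 136 CPM (lowest, median, highest) in mice 1 to 6, against 138, 143 and 159 CPM in mice 7 to 12. In TPM its sets overlapped, at 99.1 to 133 TPM in mice 1 to 6 and 128 to 172 TPM in mice 7 to 12. In CPM they did not, while its log2 fold change of -0.16 ± 0.05, with sex in the fit, missed the threshold at an adjusted p of 0.0512 by edgeR. Of the 12 members of paralogs 6 to 9, 3 were called higher and 1 lower. None of the 7 tested members of paralogs 1 to 3 was called. Among them, Hoxb3 had a log2 fold change of -0.14 ± 0.11 (SE) and Hoxb2 one of 0.07 ± 0.09.

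By normalised CPM, 4 tested members stood above in mice 1 to 6 without overlap (Hoxb4, Hoxc6, Hoxa7 and Hoxc8), against 5% of all tested genes. Another 3 stood below without overlap (Hoxb8, Hoxc12 and Hoxc13), against 3.86% of all tested genes. Hoxc12 and Hoxc13 passed the filter on low counts only through mice 7 to 12, so their separation is no evidence here. Of the 31 members without that limit, Hoxb8 alone stood below. In TPM, Hoxb4, Hoxc6, Hoxa7 and Hoxb8 overlapped, and only Hoxc8, Hoxc12 and Hoxc13 of all members stood apart. By cluster, Hoxc held 6 of the 12 calls, 3 in each direction with Hoxc12 and Hoxc13 among the lower, and Hoxd held 3, all lower. The Hoxa cluster had 1 call in each direction, and Hoxb had Hoxb4 alone.

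**Figure D3:**
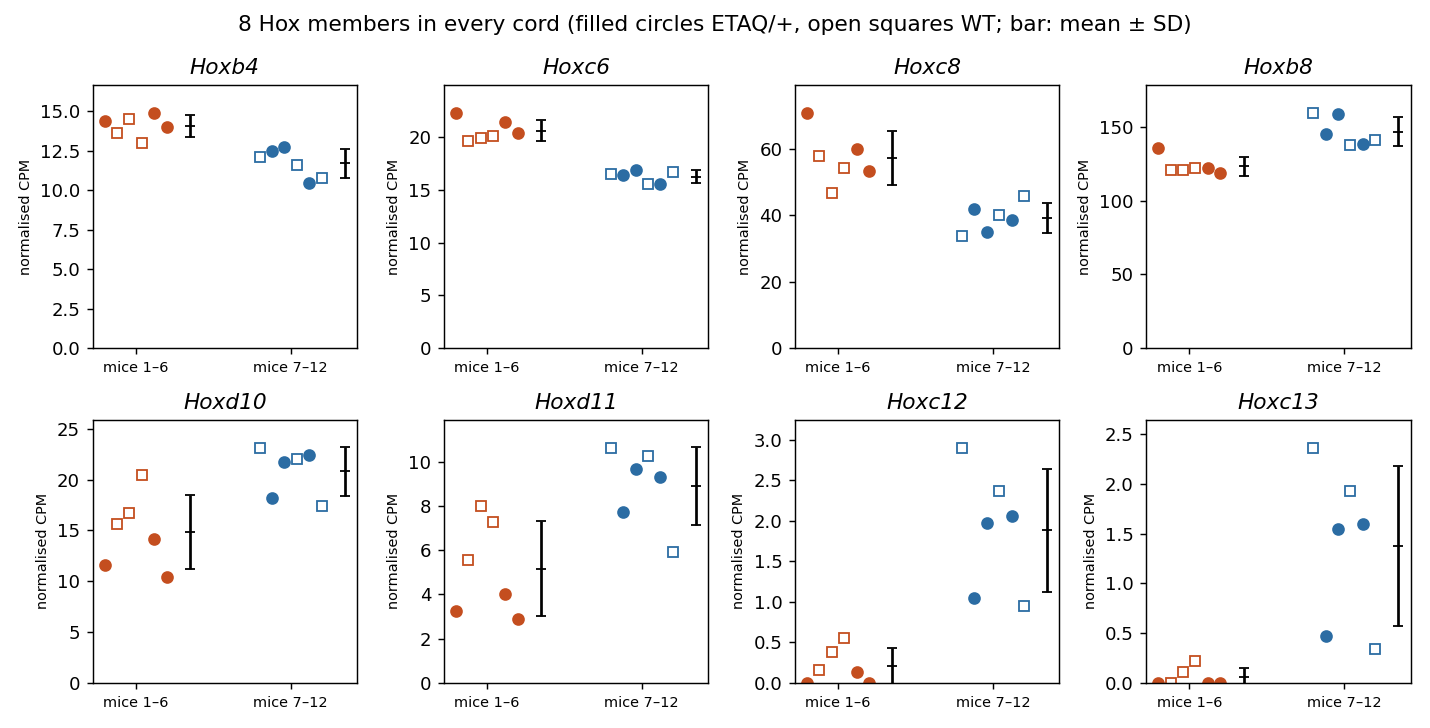
TMM-normalised CPM of 8 Hox members in every cord, with mice 1 to 6 left of mice 7 to 12 and the mean with its SD beside each set. Filled circles are ETAQ/+ and open squares WT. Hoxb4, Hoxc6 and Hoxc8 stand higher in mice 1 to 6 and Hoxb8 lower, all without overlap. Hoxd10 and Hoxd11 are lower with overlap, and Hoxc12 and Hoxc13 are at or near 0 in mice 1 to 6.

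The estimates of the set effect lean on few cords, because sex is separated from set only through mouse 1 and mouse 11. Without the sex term, 6 members were called higher and 9 lower. Some members called with it then had smaller log2 fold changes, such as -0.34 for Hoxa10, -0.85 for Hoxd11 and 0.40 for Hoxc5. Without mouse 1, 1 member was called higher (Hoxc6) and 0 lower, while all tested genes gave 138 higher and 30 lower, against 848 and 508 with it. Without mouse 11, 2 Hox members were called higher (Hoxc6 and Hoxc8) and 1 lower (Hoxa10).

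Several gene lists moved with the set beside the Hox members. All 5 red cell, all 8 bone marrow and all 6 skeletal muscle markers were called higher in mice 1 to 6, as were 4 of 5 Schwann cell, 5 of 6 meningeal and 3 of 6 bone and cartilage markers. Examples are Mpo of neutrophil granules at a log2 fold change of 5.21 ± 0.35 (SE), Myh1 of fast muscle at 5.99 ± 0.80 and Prx of peripheral myelin at 5.09 ± 0.41, with adjusted p of 5.94e-07, 0.00305 and 0.00016 by edgeR. Their part in the Hox differences was not tested. Of 10 cord neuron genes, Lbx1 of dorsal interneurons was lower at -0.30 ± 0.08 with an adjusted p of 0.0419. Of 7 motor column genes, Aldh1a2, which meninges also express, was higher at 2.01 ± 0.42 with an adjusted p of 0.0213.

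Genes that work with Hox proteins or upon the clusters were read beside them. None of 9 tested Hox partners was called (Pknox2 at an adjusted p of 0.0572), none of 14 chromatin regulators of the clusters (Bmi1 at 0.0815) and none of 8 axial signalling genes (Rarg at 0.0836), all by edgeR. Of 15 tested neighbours of the clusters, 1 was called. Hotair, a long noncoding RNA read from between Hoxc11 and Hoxc12, had 0.0592, 0.955, 0.760, 1.48, 0.943 and 0.393 CPM in mice 1 to 6, against 3.47, 1.74, 2.78, 2.89, 3.06 and 1.83 CPM in mice 7 to 12. The sets did not overlap, and its log2 fold change was -2.72 ± 0.48 (SE), with an adjusted p of 0.00607 by edgeR.

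The balance of caudal and cervical members was also read within each cord, as shares of the summed Hox TPM. Paralogs 10 to 13 took 8.04%, 11.5%, 12.8%, 13.6%, 11.5% and 9.68% in mice 1 to 6, a mean of 11.2% ± 2.03 (SD, n = 6). In mice 7 to 12 they took 15.6%, 12.6%, 14.2%, 15.004%, 14.2% and 12.6%, a mean of 14.03% ± 1.26 (SD, n = 6). The sets overlapped, with mouse 1 the lowest of all cords and mouse 7 the highest.

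Paralogs 4 and 5 took 9.87% ± 0.441 in mice 1 to 6 and 8.86% ± 0.504 in mice 7 to 12 (SD, n = 6 each). The ratio of the caudal share to that of paralogs 4 and 5 was 0.770 to 1.46 in mice 1 to 6, with a mean of 1.14 ± 0.245. In mice 7 to 12 this ratio was 1.31 to 1.91, with a mean of 1.59 ± 0.228. Mice 3 and 4 lay above the lowest cords of mice 7 to 12. The total of all members was 616.7 to 753.6 TPM in mice 1 to 6 and 730.9 to 850.8 TPM in mice 7 to 12.

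**Figure D4:**
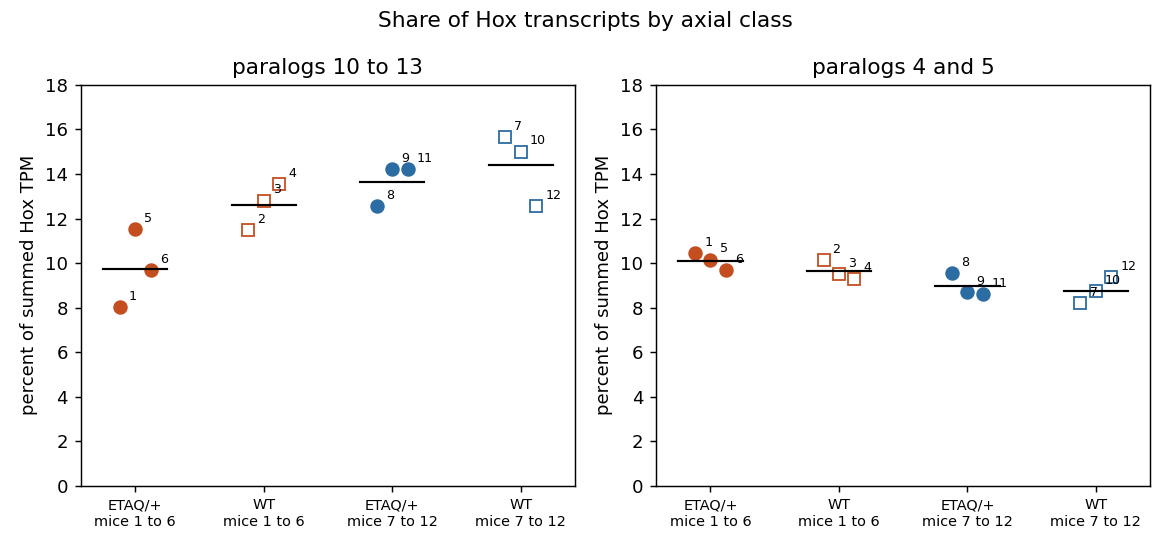
Percent of the summed Hox TPM taken by paralogs 10 to 13 and by paralogs 4 and 5 in each cord, by genotype within each set, with mouse numbers beside the points and bars at the group means. By group mean the caudal share is lowest in ETAQ/+ mice of mice 1 to 6, at 8.04% to 11.5%. The share of paralogs 4 and 5 is highest there.

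Within each set the caudal members ranked the cords in a partly shared order. Of the 11 caudal members with at least 30 counts in all, mouse 6 was lowest (ties counted) for 8 and mouse 1 for 7 among mice 1 to 6, and mouse 4 was highest for 7. Mice 1 and 6 tied at 0 TPM for Hoxc12, Hoxa13, Hoxb13 and Hoxc13. Beyond these ties, mouse 1 was lowest for Hoxa10, Hoxc10 and Hoxc11, and mouse 6 for Hoxd10, Hoxa11, Hoxd11 and Hoxd13. Among mice 7 to 12, mouse 7 was highest for 10 of the 11, mouse 12 was lowest for 8 and mouse 8 for 4. These members share each cord's library and the choice of cords, so this describes the cords and is no test.

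Between the genotypes, 1 Hox member differed past the threshold. Of 34 tested members, Hoxb9 was called higher in ETAQ/+, against 1.92% of all tested genes called and 0.582% called higher. Hoxb9, which helps to pattern thoracic levels, had 70.5, 75.5 and 80.1 CPM (lowest, median, highest) in ETAQ/+ cords, against 58.1, 65.4 and 68.7 CPM in WT cords. The genotypes did not overlap in CPM, which held for 2.01% of all tested genes. The log2 fold change was 0.21 ± 0.04 (SE), with an adjusted p of 0.0171 by edgeR.

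Within mice 1 to 6 the Hoxb9 difference was 0.20 ± 0.06, with an adjusted p of 0.281, and within mice 7 to 12 it was 0.21 ± 0.06, with an adjusted p of 0.238, by edgeR. Leaving out mouse 5, mouse 9 or mouse 10 ended its call, at an adjusted p of 0.0513, 0.0540 and 0.0535. Hoxb5 was next by p, with 33.9, 37.9 and 38.7 CPM in ETAQ/+ cords and 33.4, 33.6 and 36.5 CPM in WT cords, a log2 fold change of 0.11 ± 0.04 and an adjusted p of 0.186. The fitted values ran from -0.77 ± 1.34 for Hoxb13 to 0.28 ± 0.15 for Hoxd1, at adjusted p of 0.908 and 0.541.

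The Hoxa cluster and Gars share chromosome 6, with 2.777 Mb between them in GENCODE M21 (GRCm38). None of the 10 tested Hoxa members was called between genotypes, and their median log2 fold change was 0.04. None of the Hox partners, chromatin regulators, axial signals or cluster neighbours was called either. Among genes of cord neurons and motor columns 2 were called between genotypes. Chat of cholinergic neurons was lower in ETAQ/+ by a log2 fold change of -0.64 ± 0.05 (SE) and Lhx4 by -0.59 ± 0.08, with adjusted p of 2.62e-06 and 0.000432 by edgeR. Of 6 markers of sensory ganglia, 3 could be tested, and all 3 were called by edgeR, in differing directions. The untested markers were at 0.296 to 2.66 CPM in mouse 1 and at most 0.146 CPM in any other cord. P2rx3 was higher in ETAQ/+ at 2.87 ± 0.13 (adjusted p 6.73e-09) and Avil at 2.35 ± 0.32 (adjusted p 0.000934), while Prph was lower at -0.84 ± 0.05 (adjusted p 2.84e-07). Their part in the Hox values between genotypes was not tested.

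No caudal member was called between the genotypes. The fit had sex as a covariate and not the set, and its log2 fold changes had a median of -0.23 over the 9 tested caudal members and 0.08 over paralogs 4 and 5. Those 9 include the rare Hoxc12, Hoxb13 and Hoxc13. Without them, paralogs 10 ran from -0.23 to -0.02 and paralogs 11 from -0.45 to -0.33. With sex and set as covariates the caudal median was -0.49, again with no caudal member called, and Hoxb9 was the 1 Hox call, against 2.71% of all tested genes called and 0.878% called higher. Paralogs 10 to 13 took 11.7% ± 2.48 of Hox TPM in ETAQ/+ and 13.5% ± 1.57 in WT (SD, n = 6 each), and the genotypes overlapped. In mice 1 to 6 the caudal share was 8.04%, 11.5% and 9.68% in ETAQ/+ mice 1, 5 and 6, against 11.5%, 12.8% and 13.6% in WT mice 2, 3 and 4. In mice 7 to 12 it was 12.6%, 14.2% and 14.2% in ETAQ/+ mice 8, 9 and 11, against 15.6%, 15.004% and 12.6% in WT mice 7, 10 and 12.

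Fitted within each set, no member was called, against 0.803% of all tested genes in mice 1 to 6 (0.279% higher in ETAQ/+ and 0.524% lower) and 0.937% in mice 7 to 12 (0.25% higher and 0.686% lower). At an unadjusted p under 0.05 there were 6 members in mice 1 to 6 and 3 in mice 7 to 12. In mice 1 to 6 all 9 tested caudal members had negative log2 fold changes, with a median of -1.01. In mice 7 to 12 all of them but Hoxa10, at 0.005, were negative as well, with a median of -0.13. Hoxc12, Hoxb13 and Hoxc13, which were at or near 0 in mice 1 to 6, are among the 9. They passed the filter on low counts only through mice 7 to 12, so their values are no evidence. Without them, paralogs 10 ran from -0.51 to -0.09 and paralogs 11 from -1.02 to -0.74 in mice 1 to 6. In mice 7 to 12 the ranges were -0.13 to 0.005 and -0.23 to -0.03. Hoxa11, a lumbar-level gene, had 1.36, 2.23 and 1.08 CPM in ETAQ/+ mice 1, 5 and 6, against 2.58, 3.19 and 3.48 CPM in WT mice 2, 3 and 4. That log2 fold change was -1.01 ± 0.25, with an adjusted p of 0.116 by edgeR, and for Hoxd11 it was -1.02 ± 0.25 with an adjusted p of 0.170.

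**Figure D5:**
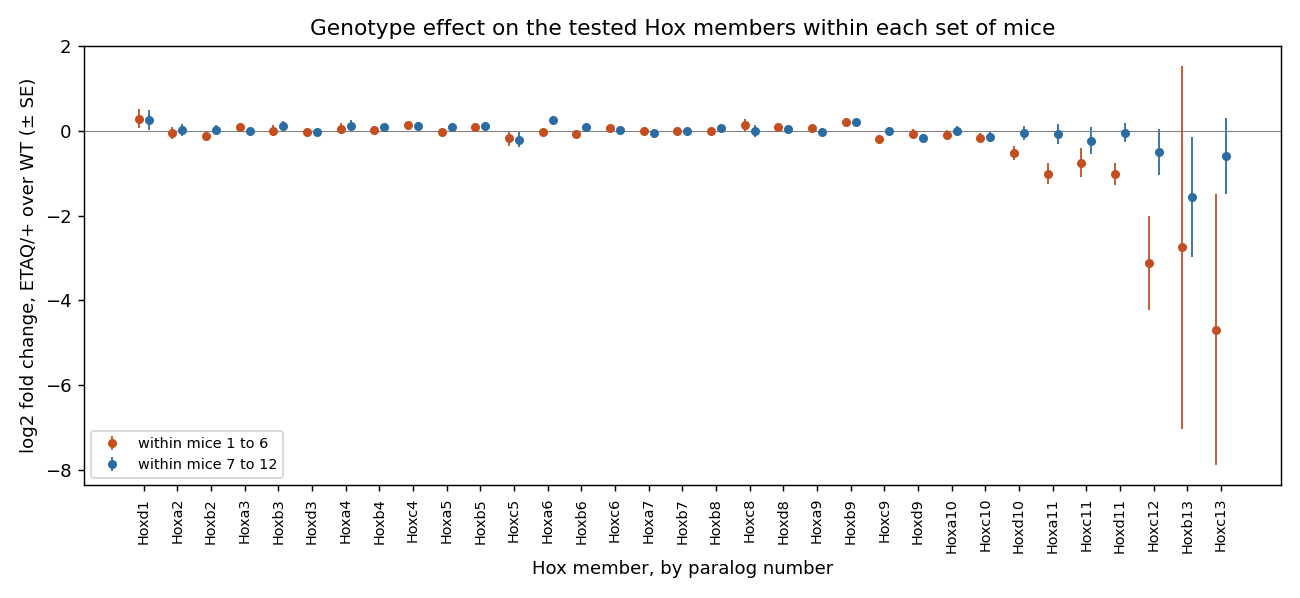
Log2 fold change of ETAQ/+ over WT with its SE for the tested Hox members but 1, ordered by paralog number, fitted within mice 1 to 6 (orange) and within mice 7 to 12 (blue). Hoxb9 lies at 0.20 and 0.21 in the pair of sets. The caudal members lie below 0 in mice 1 to 6 and, but for Hoxa10, in mice 7 to 12. Among them, Hoxc12, Hoxb13 and Hoxc13 were at or near 0 counts in mice 1 to 6.

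The genotype effect itself was compared between the sets with an interaction term. No Hox member was called, and 0% of all tested genes were. At an unadjusted p under 0.05 there were 2 members by edgeR, Hoxa11 with a difference of -0.94 ± 0.36 and Hoxd11 with -0.98 ± 0.37, both at an adjusted p of 0.995, and 4 by DESeq2. DESeq2 and limma-voom also called 0 Hox members.

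Males over females, with genotype and set as covariates, gave no Hox call, against 0.0524% of all tested genes (0.0233% higher in males and 0.0291% lower). All 9 tested caudal members had a positive log2 fold change for males, with a median of 0.39 and a range of 0.19 to 1.09. Without the rare Hoxc12, Hoxb13 and Hoxc13, paralogs 10 ran from 0.19 to 0.32 and paralogs 11 from 0.32 to 0.69. For the set, the same model gave all 9 a negative value, and only mice 1 and 11 separate sex from set. At an unadjusted p under 0.05 there were 4 members by edgeR, and DESeq2 and limma-voom had 5 each. The smallest p belonged to Hoxa10, at a log2 fold change of 0.32 ± 0.10, and to Hoxb8, at -0.14 ± 0.05, both with an adjusted p of 1 by edgeR.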

How the data were processed

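Whole-cord polyA RNA of 12 mice was sequenced as 75 bp paired reads, per the labels' protocols, and Bowtie2 2.2.0 and RSEM 1.2.12 are named in the submitters' processing notes. For the build, the annotation and the strand setting, nothing is given in the sources used here. In the authors' deposited tables, 38924 genes have an expected count without normalisation, per the file headers. The deposited TPM and FPKM columns are adjusted for gene length and library size, per the file headers. Expected counts were rounded and tested in R 4.3.3 with edgeR 4.0.16. The robust quasi-likelihood fit used TMM scaling (factors 0.975 to 1.02) and the filterByExpr rule on 4 genotype-by-sex groups, which kept 17189 genes. Adjusted p values are Benjamini-Hochberg over those genes, two-sided, with a threshold of 0.05. The genotype effect had sex as covariate, the set effect sex and genotype, and the sex effect genotype and set. SE is the absolute log2 fold change over the square root of F. DESeq2 1.42.0, limma 3.58.1, other filters, other covariates, unscaled library totals and leaving out each mouse were tried. Fits were tested on simulated data. Library totals, which set the depth, were 23595944 to 41452700 counts.

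Each mouse is a separate animal by its title. By the naming rule all 38 members could be named, but 1 member and some marker genes are not reported here by name, and that member is left out of the plots of single members. Full statistics were given for the 2 highest by mean TPM per class, for up to 8 called members per contrast, for the 2 with the smallest p and for the extremes of fold change, and of other lists for up to 4 called genes, or for the smallest p where none was called. The members, lists and sets were chosen with earlier results of these data known. Promoter windows came from RefSeq (GRCm38.p6) and positions from GENCODE M21.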

Additional observations from a re-analysis of the deposited data

Results flagged for a closer look

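Over 156 groups of 6 cords (34 tested members and 5 measures of the axial shares, each in mice 1 to 6, mice 7 to 12, ETAQ/+ and WT), a single cord stood far from the other 5 in 8 cases, and chance gives about 1 in 20 groups. Among mice 1 to 6, mouse 1 had 59.0 TPM of Hoxc8, against 38.8 to 46.3 TPM in the other 5. Among mice 7 to 12, mouse 9 had 16.8 TPM of Hoxa6, against 12 to 13.5 TPM. Mouse 11 had 50.9 TPM of Hoxd8, against 43.2 to 45.8 TPM in the rest of mice 7 to 12 and 43.3 to 45.8 TPM in the rest of ETAQ/+. Among ETAQ/+ cords, mouse 1 had 64.4 TPM of Hoxa7, against 55.4 to 58.5 TPM, and mouse 5 had 7.26 TPM of Hoxc9, against 8.53 to 8.99 TPM. Among WT cords, mouse 2 had 37.9 TPM of Hoxb9, against 46.7 to 48.0 TPM, and 30.2 TPM of Hoxc10, against 39.7 to 44.6 TPM. Mouse 2 also had the lowest summed Hox level of all cords, 616.7 TPM, and the highest mitochondrial share, 11.1%. Without mouse 2, Hoxb9 stayed past the threshold between genotypes, at a log2 fold change of 0.18 and an adjusted p of 0.0312 by edgeR.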

How the results depend on the processing

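No paired analysis was possible because the mouse numbers 1 to 12 are each used once and are not shared between groups. Of Hox members called higher in mice 1 to 6, the 5 of the report became 3 in ETAQ/+ mice alone and 1 in WT mice alone, where set and sex are the same. Leaving out each mouse in turn gave 1 to 5, with 1 without mouse 1 and 2 without mouse 11. Of the members called lower, the 7 became 2 in WT mice alone, and leaving out each mouse gave 0 to 9, with 0 without mouse 1 and 1 without mouse 11. The call of Hoxb9 between genotypes gave a count of 0 to 1, with 0 without mouse 5, 9 or 10. Hoxc6 kept its set call in all 19 alternatives, Hoxb4 and Hoxa7 lost it in 4 each, Hoxc11 in 6, Hoxd10 in 9 and Hoxd11 in 13, and no called member changed sign under any of them. The difference in the caudal share between mice 1 to 6 and mice 7 to 12, -2.85 percentage points, stayed between -3.32 and -2.22 when a mouse was left out, and -4.22 without the highest member of each class. Between ETAQ/+ and WT it was -1.80, with a range of -2.30 to -1.07. Unscaled library totals were added after seeing the data and moved no Hox count by over 1.5 times, while genotype calls over all genes became 134 higher and 162 lower, against 100 and 230. DESeq2 gave 162 and 344 for genotype. For the set, all genes gave 1873 higher and 1660 lower without the sex term, and 467 and 270 in WT mice alone, against 848 and 508. Paralogs 12 and 13 rest on few reads, which limits their fold changes.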
